A study of Mus musculus with 8 samples.

Results

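The unfolded protein response (UPR) was followed at the mRNA level in blood monocytes (MCs) of control and diabetic mice through 10 genes, namely Ern1, Atf6, Xbp1, Atf4, Ddit3, Hspa5, Hsp90b1, Dnajb9, Sdf2l1 and Herpud1. They were chosen by symbol, and 10 of 10 were found among the 16486 genes of the deposited RNA-Seq values. The 8 libraries came from MCs sorted by flow cytometry as CD11b+ Ly6G- Ly6C high or CD11b+ Ly6G- Ly6C low. Ly6C high MCs are the classical MCs that leave the blood for inflamed tissue, and Ly6C low MCs are the nonclassical MCs that patrol the vessel wall. C57/BL6 mice served as control (CT), C57/BL6 mice made diabetic with streptozotocin (STZ) at 50 mg/kg per day over 5 days starting at 8 weeks of age as T1DM mice, and db/db mice, homozygous for a mutant leptin receptor, as T2DM mice. The study describes male mice, fed normal chow, and its methods give 20 to 22 weeks as the age at blood collection. Each subset had 2 libraries from CT mice, 1 from T1DM mice and 1 from T2DM mice. The study's methods describe duplicate sequencing of each group, but the values used here hold 1 library per diabetic model and subset. Material of 5 mice was pooled per group, so the spread between CT libraries of a subset need not contain the spread between mice, and p-values measure only the spread between libraries. The diabetic models differ in genotype and STZ treatment. A NextSeq 500 was used for CT and a HiSeq 4000 for diabetic libraries, so an effect of the sequencer cannot be told apart from one of diabetes.

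The UPR is the reaction of a cell to unfolded protein in the endoplasmic reticulum (ER), where secreted and membrane proteins are folded. Sensors in the ER membrane start separate arms of it. IRE1, the product of Ern1, splices the mRNA of Xbp1 into the form that encodes an active transcription factor; ATF6 is cut in the Golgi and its freed part enters the nucleus; PERK, the product of Eif2ak3, slows translation and favours translation of Atf4, which in turn induces Ddit3 (CHOP). The factors of these arms raise ER chaperones and the machinery of ER-associated degradation (ERAD), which returns misfolded proteins to the cytosol. The splicing of Xbp1, the cutting of ATF6 and the translation of Atf4 are not read by a gene-level mRNA value, and the values below are totals over the transcripts of a gene. B cells, and the plasma cells that secrete antibody, also express several of these genes.

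The 300 bases around the annotated transcription start (250 before, 50 after; RefSeq, assembly GRCm38.p6) were given for 9 of the 10 genes. The ER stress response element (ERSE), to which ATF6 and XBP1 bind with NF-Y, was searched on both strands as CCAAT and CCACG with any 9 bases between them. Its shorter form ERSE-II was searched as ATTGG and CCACG with any 1 base between them; both end in CCACG, and no base of a match to one lay in a match to the other in these 9 windows. Also searched were the UPR element (UPRE, TGACG directly followed by TGG) and the element that ATF4 binds with C/EBP factors (CARE, TGATG, any 1 base, then AAT). ERSE was found in Hspa5 and, in 2 copies, in Hsp90b1, and ERSE-II in Herpud1. Among 32851 mouse promoters of that length, 0.119% held ERSE, 0.0365% ERSE-II, 0.676% UPRE and 0.965% CARE. UPRE and CARE were found in none of the 9 windows. The stretches before the start that hold these letters are printed because the genes behind them are the textbook targets of the response, with the searched letters of the elements in capitals and each strand read 5′ to 3′ toward the gene.
Hspa5, chr2:34771990-34772089, + strand: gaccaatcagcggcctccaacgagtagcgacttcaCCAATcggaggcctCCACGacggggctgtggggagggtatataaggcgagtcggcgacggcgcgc
Hsp90b1, chr10:86705525-86705664, - strand: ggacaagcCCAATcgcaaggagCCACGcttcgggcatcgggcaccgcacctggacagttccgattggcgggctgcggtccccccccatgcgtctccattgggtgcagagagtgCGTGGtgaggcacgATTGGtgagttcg
Herpud1, chr8:94386329-94386428, + strand: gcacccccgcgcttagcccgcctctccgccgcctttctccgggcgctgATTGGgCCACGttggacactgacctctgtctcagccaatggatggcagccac
In Hspa5 the element spans bases -65 to -47 before the start, in Herpud1 -52 to -42, and in Hsp90b1 the first copy spans -212 to -194 and the second, read on the other strand, -107 to -89. Neither ERSE nor ERSE-II was found in the windows of Ern1, Xbp1, Atf4, Ddit3, Dnajb9 and Sdf2l1, which says only that these letters are not in this window.

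Expression values are normalized log2 values from -4.05 to 15.64 without read counts, so the depth behind a value is unknown. A difference of 1 is a 2-fold change. Levels are not compared between genes here, because the study's methods name both gene counts and TPM, a length-scaled unit, and do not say from which of them the deposited values were made. For 7 of the 10 genes the mean over the libraries was at least 5. Among genes with a mean of at least 5, the CT replicates differed by a median of 0.126 (Ly6C high) and 0.13 (Ly6C low). The sort marker transcript Ly6c2 was 8.56 to 8.72 in the 4 Ly6C high libraries and 2.69 to 4.07 in the 4 Ly6C low libraries, and Ccr2 was also higher in each Ly6C high library (10.76 to 11.37 against 7.67 to 8.57). Treml4, a marker of Ly6C low MCs, was higher in each Ly6C low library (7.48 to 7.91 against 5.77 to 6.90), whereas Nr4a1, the factor that nonclassical MCs require, overlapped (7.03 to 8.11 in Ly6C high, 7.80 to 8.28 in Ly6C low MCs). Of the 8 nonclassical markers that include these, 5 were lower and 3 higher in CT Ly6C high than in CT Ly6C low MCs. Their summed level (log2 of the sum of linear values) differed little in CT MCs, at 11.38 and 11.39 in Ly6C high and 11.48 and 11.50 in Ly6C low MCs. It was 10.98 (T1DM) and 10.40 (T2DM) in Ly6C high, and 11.90 and 11.45 in Ly6C low MCs.

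The first question is whether UPR genes differ between the MC subsets. Ern1 and Xbp1, the sensor of the IRE1 arm and its target mRNA, were higher in Ly6C high than in Ly6C low MCs in CT, T1DM and T2DM mice, by about 2-fold. Of the 4 chaperone genes and the ERAD gene among the 10, 0 were called by limma. Differences between subsets were tested with limma, which fits a linear model to each gene and moderates its variance with those of all genes. A gene was called at a Benjamini-Hochberg adjusted p-value under 0.01 over all 16486 genes and an absolute log2FC above 1. In CT MCs alone (2 against 2 libraries), 0 of the 10 genes were called, against 3.52% of all genes; 5 of the 10 had an unadjusted p under 0.05, against 37.7% of all genes. Over the 3 mouse groups (8 libraries, mouse group as covariate, called the pooled test below), 2 of the 10 were called, both higher in Ly6C high MCs, against 12.1% of all genes called in either direction, 5.37% higher and 6.76% lower; 5 of the 10 had an unadjusted p under 0.05, against 43.2% of all genes.

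Ern1 (chr11:106397620-106487796; positions here are those of the RefSeq gene in GRCm38.p6) encodes the kinase and endonuclease IRE1. Its values in Ly6C high MCs were 8.11 and 7.96 (CT), 7.93 (T1DM) and 8.04 (T2DM). In Ly6C low MCs they were 6.47 and 6.89 (CT), 6.82 (T1DM) and 6.75 (T2DM). The subsets did not overlap, and the mouse groups lay close together within each subset. The log2FC was 1.35 (SE 0.17, adjusted p = 0.0213 by limma) in CT MCs, which misses the limit on p, and 1.28 (SE 0.11, adjusted p = 5.53e-05) in the pooled test, a 2.43-fold difference. Within diabetic mice, with 1 library on a side and no test, Ern1 was 1.11 higher on the log2 scale in Ly6C high MCs in T1DM and 1.29 higher in T2DM mice.

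Atf6 (chr1:170704457-170868585) encodes the ATF6 sensor. It was 8.33 and 8.29 (CT), 8.44 (T1DM) and 8.20 (T2DM) in Ly6C high MCs. In Ly6C low MCs it was 7.81 and 7.80 (CT), 7.88 (T1DM) and 8.16 (T2DM). Again the subsets did not overlap, although in T2DM mice they came within 0.04 of each other on the log2 scale. The log2FC was 0.50 (SE 0.04, adjusted p = 0.0110 by limma) in CT MCs and 0.40 (SE 0.10, adjusted p = 0.0145) in the pooled test, short of both limits. With quantile normalization the pooled log2FC was 0.13 (adjusted p = 0.398), and the T2DM difference turned to -0.25, so the subsets then overlapped. Of the related sensors, the ATF6 homologue Atf6b was called in the pooled test (log2FC 1.13, SE 0.14, adjusted p = 0.000353). The PERK gene Eif2ak3 was not called, at -0.08 (SE 0.21, adjusted p = 0.802 by limma) in CT MCs and -0.22 (SE 0.19, adjusted p = 0.4) in the pooled test.

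**Figure D1:**
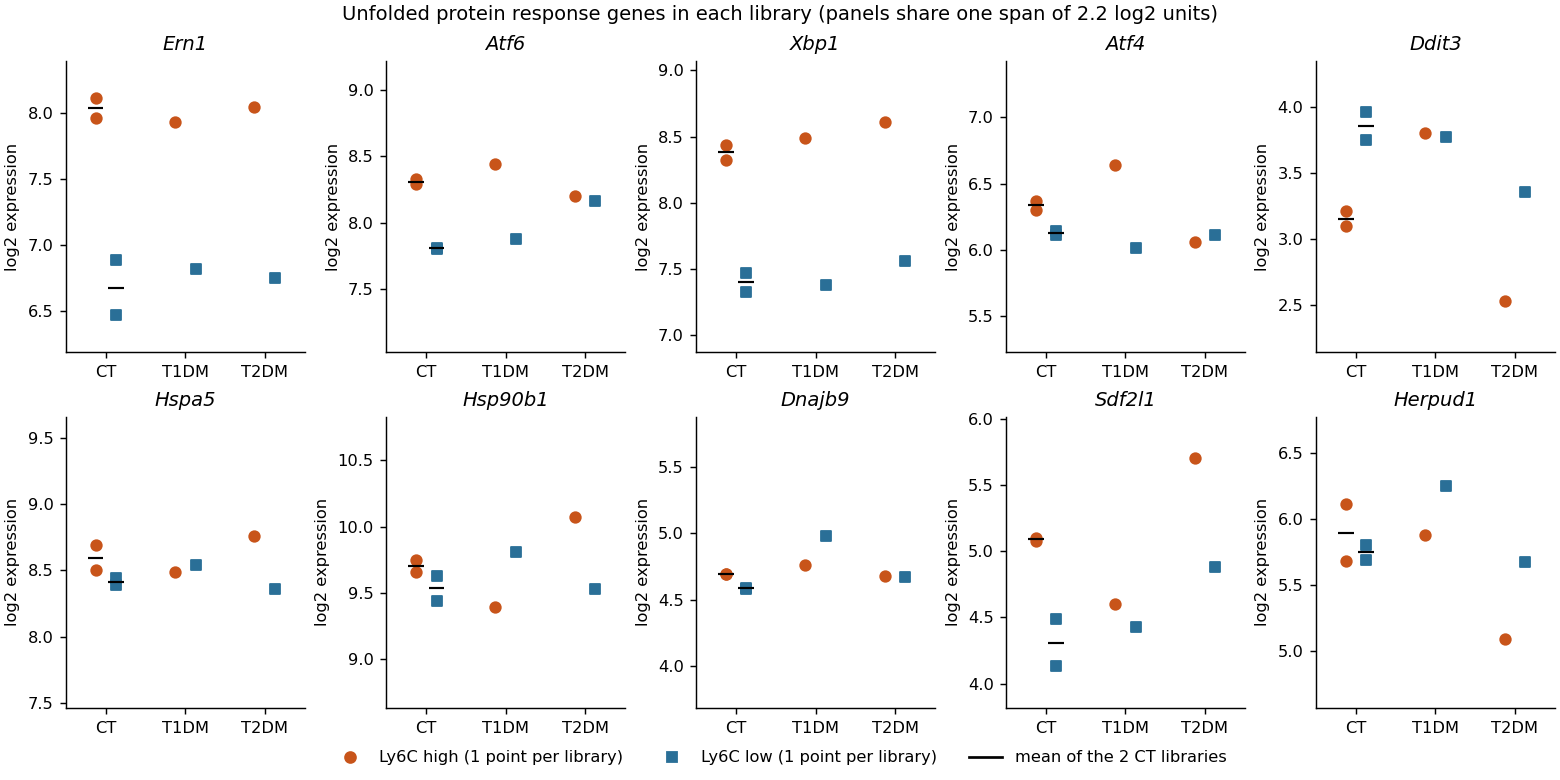
Deposited log2 expression of the 10 UPR genes (y axis; panels share one span of 2.2 log2 units but not one range) in CT, T1DM and T2DM mice (x axis), with Ly6C high libraries as circles, Ly6C low libraries as squares and bars at the mean of the 2 CT libraries. In Ern1, Atf6 (not with quantile normalization) and Xbp1 the 4 circles lie above the 4 squares, and in the other 7 genes the subsets overlap.

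Xbp1 (chr11:5520641-5525993) encodes the transcription factor whose mRNA IRE1 splices. In Ly6C high MCs its values were 8.32 and 8.44 (CT), 8.49 (T1DM) and 8.61 (T2DM). In Ly6C low MCs they were 7.47 and 7.33 (CT), 7.38 (T1DM) and 7.56 (T2DM). All Ly6C high libraries lay above all Ly6C low libraries, and the gap between subsets was several times the spread within them. In CT MCs the log2FC was 0.99 (SE 0.08, adjusted p = 0.0101 by limma), just short of both limits, and in the pooled test it was 1.03 (SE 0.08, adjusted p = 2.68e-05), a 2.04-fold difference just past the limit of 1. With quantile normalization it was 0.78 and no longer called, although its adjusted p was 0.000144. The differences without a test were 1.11 in T1DM and 1.05 in T2DM mice.

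Ern1, Atf6 and Xbp1 were the 3 genes whose 4 Ly6C high libraries all lay above the 4 Ly6C low libraries, a pattern that 16.4% of all genes had; with quantile normalization Atf6 did not have it. The reverse pattern was seen in 0 of the 10 genes and in 16.3% of all genes. Past 2-fold higher in Ly6C high MCs without a test were Ern1 and Xbp1 in T1DM mice, against 11.0% of all genes, and the same 2 in T2DM mice, against 11.3%; none of the 10 was past 2-fold lower, against 16.8% and 17.8%. With quantile normalization neither was past 2-fold in T1DM mice, and 1 was in T2DM mice.

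The transcription factors of the PERK arm did not show this separation. Atf4 (chr15:80255184-80257545), the factor translated when eIF2alpha is phosphorylated, was 6.30 and 6.37 (CT), 6.64 (T1DM) and 6.06 (T2DM) in Ly6C high MCs, and 6.14 and 6.11 (CT), 6.01 (T1DM) and 6.11 (T2DM) in Ly6C low MCs. The T2DM Ly6C high value fell among those of Ly6C low MCs. Its log2FC was 0.21 (SE 0.08) in CT MCs and 0.25 (SE 0.12) in the pooled test, with adjusted p = 0.145 and 0.156 by limma.

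Ddit3 (chr10:127290793-127296291) encodes CHOP, a factor linked to cell death under lasting ER stress. It was 3.21 and 3.10 (CT), 3.80 (T1DM) and 2.53 (T2DM) in Ly6C high MCs. In Ly6C low MCs it was 3.75 and 3.96 (CT), 3.77 (T1DM) and 3.36 (T2DM). Ddit3 was thus the one of the 10 genes with a negative log2FC in CT MCs, and the T1DM Ly6C high value lay among those of Ly6C low MCs. The log2FC was -0.70 (SE 0.18, adjusted p = 0.0747 by limma) in CT MCs and -0.55 (SE 0.21, adjusted p = 0.0763) in the pooled test, and neither was called.

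**Figure D2:**
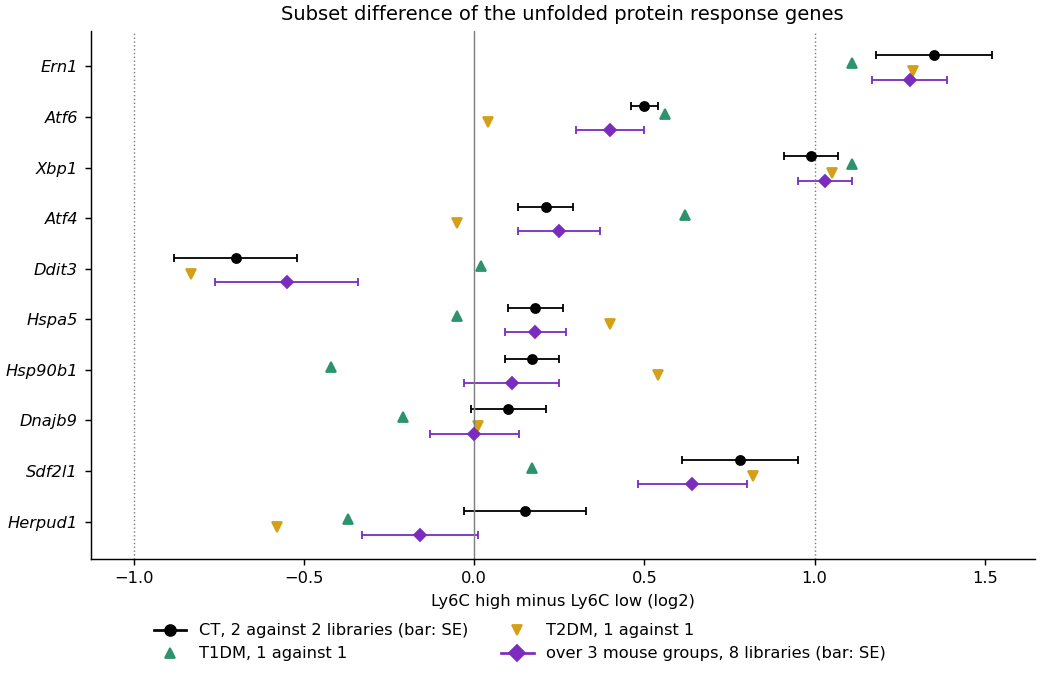
Ly6C high minus Ly6C low (x axis, log2) for each UPR gene (y axis): black circles are CT MCs (2 against 2 libraries), purple diamonds the pooled test over 8 libraries, both with bars of 1 SE, and triangles the T1DM and T2DM differences of 1 library each, without error. Dotted lines mark a 2-fold change. Ern1 lies between 1.11 and 1.35 and Xbp1 between 0.99 and 1.11, whereas the 4 estimates fall on both sides of 0 for Atf4, Ddit3, Hspa5, Hsp90b1, Dnajb9 and Herpud1.

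Hspa5 (chr2:34772090-34776529) encodes BiP, the main ER chaperone, which also holds the sensors inactive. It was 8.69 and 8.50 (CT), 8.49 (T1DM) and 8.76 (T2DM) in Ly6C high MCs, and 8.39 and 8.44 (CT), 8.54 (T1DM) and 8.36 (T2DM) in Ly6C low MCs. The whole range over the libraries was 0.40, the same as that of Dnajb9 and the smallest of the 10 genes. The subset difference was 0.18 in CT MCs (SE 0.08) and in the pooled test (SE 0.09), with adjusted p = 0.198 and 0.170 by limma, and -0.10 in both with quantile normalization.

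Hsp90b1 (chr10:86690841-86705444) encodes the ER form of HSP90. It was 9.66 and 9.75 (CT), 9.39 (T1DM) and 10.07 (T2DM) in Ly6C high MCs, and 9.44 and 9.63 (CT), 9.81 (T1DM) and 9.53 (T2DM) in Ly6C low MCs. The T1DM and T2DM Ly6C high libraries were the lowest and the highest of all. The log2FC was 0.17 (SE 0.08) in CT MCs and 0.11 (SE 0.14, adjusted p = 0.564 by limma) in the pooled test; with quantile normalization these were -0.22 and -0.29.

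Dnajb9 (chr12:44205897-44210068) encodes ERdj4, a cochaperone of BiP. Its CT values were 4.69 and 4.69 in Ly6C high and 4.58 and 4.59 in Ly6C low MCs, and the T1DM Ly6C low library, at 4.98, was the highest of all. The remaining libraries, T1DM Ly6C high at 4.76 and T2DM at 4.68 and 4.67, lay near the CT Ly6C high values. The pooled log2FC was 0.00077 (SE 0.13) with adjusted p = 0.997 by limma. Of the 31-base sequences of its transcripts, 10.8% also occur in transcripts of other genes, mostly Gm6568, so some of its signal could be split between them; this share was 4.09% for Hsp90b1 and at most 0.649% for each of the other 8 genes.

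Sdf2l1 (chr16:17130138-17132383) encodes a partner of ER chaperone complexes. It was 5.08 and 5.10 (CT), 4.60 (T1DM) and 5.70 (T2DM) in Ly6C high MCs. In Ly6C low MCs it was 4.49 and 4.13 (CT), 4.43 (T1DM) and 4.88 (T2DM). It was higher in Ly6C high MCs within each mouse group, but the T1DM Ly6C high value lay below the T2DM Ly6C low value. The log2FC was 0.78 (SE 0.17, adjusted p = 0.0592 by limma) in CT MCs and 0.64 (SE 0.16, adjusted p = 0.0170) in the pooled test, neither of which was called.

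Herpud1 (chr8:94386429-94395371), which encodes a membrane protein of the ERAD complex, was 6.11 and 5.68 (CT), 5.88 (T1DM) and 5.09 (T2DM) in Ly6C high MCs, and 5.69 and 5.80 (CT), 6.25 (T1DM) and 5.67 (T2DM) in Ly6C low MCs. It had the widest gap between CT Ly6C high replicates of the 10 genes, at 0.43. Its subset difference was 0.15 (SE 0.18) in CT MCs and -0.16 (SE 0.17) in the pooled test, with adjusted p = 0.581 and 0.498 by limma. Hspa5, Hsp90b1 and Herpud1, whose promoters are printed above, thus differed between subsets by less than 0.2 on the log2 scale in each of these tests. Of the 18 measured genes with ERSE in the promoter, 0 were called higher and 2 (Acacb and Derl3) lower in the pooled test, with a median log2FC of -0.03. Of the 8 with ERSE-II, 0 were called higher and 1 (Lrif1) lower, with a median of 0.10. Over all genes 5.37% were called higher and 6.76% lower, with a median of -0.08.

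The other genes of the pathway were counted in 6 lists chosen by function. Of the 93 measured outside heat shock, 8 were called higher and 6 lower in the pooled test, beside 5.37% and 6.76% of all genes, and their median log2FC was 0.36. In CT MCs 1 was called higher and 1 lower. The higher one was Eif2ak2, the interferon-induced kinase PKR, which phosphorylates eIF2alpha as PERK does (log2FC 1.43, SE 0.06, adjusted p = 0.00498 by limma). The lower one was Pdia4, a protein disulfide isomerase (log2FC -1.23, SE 0.09, adjusted p = 0.00850).

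Among 11 genes of sensing and activation, 2 were called higher in the pooled test, Atf6b and Eif2ak2. Eif2ak2 was 7.61, 7.67 and 7.57 in CT and T1DM Ly6C high MCs but 6.33 in T2DM Ly6C high MCs, beside 6.20 to 6.32 in the Ly6C low libraries, and in T2DM mice alone both subsets read alike to within the spread of the Ly6C low libraries. Among 20 measured genes of the ATF4 and CHOP arm, 2 were called higher and 3 lower. The higher ones were Atf3, a stress-induced transcription factor (log2FC 1.48, SE 0.17), and Sesn2, a sestrin that restrains mTORC1 (1.11, SE 0.21). The lower ones were Phgdh and Shmt2, enzymes of serine and glycine metabolism (-4.15, SE 0.62, and -1.35, SE 0.21), and Ddit4, an inhibitor of mTORC1 (-1.30, SE 0.20), so members of this list were called in both directions. Phgdh shares 55.8% of its 31-base sequences with other genes, and its value is uncertain.

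Among 20 measured ER folding genes, 2 were called higher, P4hb and the prolyl isomerase Fkbp2 (log2FC 1.02, SE 0.17), and 2 lower, Fkbp11 and Pdia4 (-1.11, SE 0.21). P4hb, the protein disulfide isomerase PDI, was 8.31 and 8.20 (CT), 8.19 (T1DM) and 8.97 (T2DM) in Ly6C high MCs, and 7.02 to 7.37 in the Ly6C low libraries (log2FC 1.22, SE 0.16, adjusted p = 0.000543 by limma). Fkbp11, a prolyl isomerase known from antibody-secreting cells, was 0.91 to 1.63 in the Ly6C high and 3.17 to 3.36 in the Ly6C low libraries (log2FC -2.0, SE 0.26, adjusted p = 0.00047). Of 17 ERAD genes, 0 were called higher and Derl3, a derlin abundant in secretory cells, was called lower (-3.29, SE 0.58, adjusted p = 0.00270 by limma). Derl3 values were low and its CT replicates lay far apart, at -1.40 and 0.08 in Ly6C high and 1.00 and 2.68 in Ly6C low MCs. A positive log2FC was found for 15 of the 17, and the median of the list was 0.36. Of 25 genes of translocation and transport, 2 were called higher and 0 lower. The higher ones were Sec61b, a subunit of the translocon (1.21, SE 0.16), and Kdelr1, a receptor that returns chaperones to the ER (1.0, SE 0.13). A positive log2FC was found for 23 of the 25, with a median of 0.45. Over all 16486 genes 7405 had a positive log2FC, and the median was -0.08. In T2DM mice, without a test, 10 of these 25 were past 2-fold higher in Ly6C high MCs and 1 lower, beside 11.3% and 17.8% of all genes. In T1DM mice 2 were past 2-fold higher and 2 lower, beside 11.0% and 16.8%. Summed over all genes, the linear values were 1020068 to 1090019 in the Ly6C high and 838696 to 878313 in the Ly6C low libraries. The list medians are not given with another normalization, and the part of scaling in them was not tested. Sec61b shares 23.5% of its 31-base sequences with other genes. For comparison, 12 heat shock genes were counted, which act outside the ER, in the cytosol or, for Hspd1 and Hspe1, in mitochondria. Of these 12, 1 was called higher, Hspa8 (log2FC 1.05, SE 0.09), and 0 lower, with a median of -0.05. Hspa8 shares 43.5% of its 31-base sequences with other genes.

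**Figure D3:**
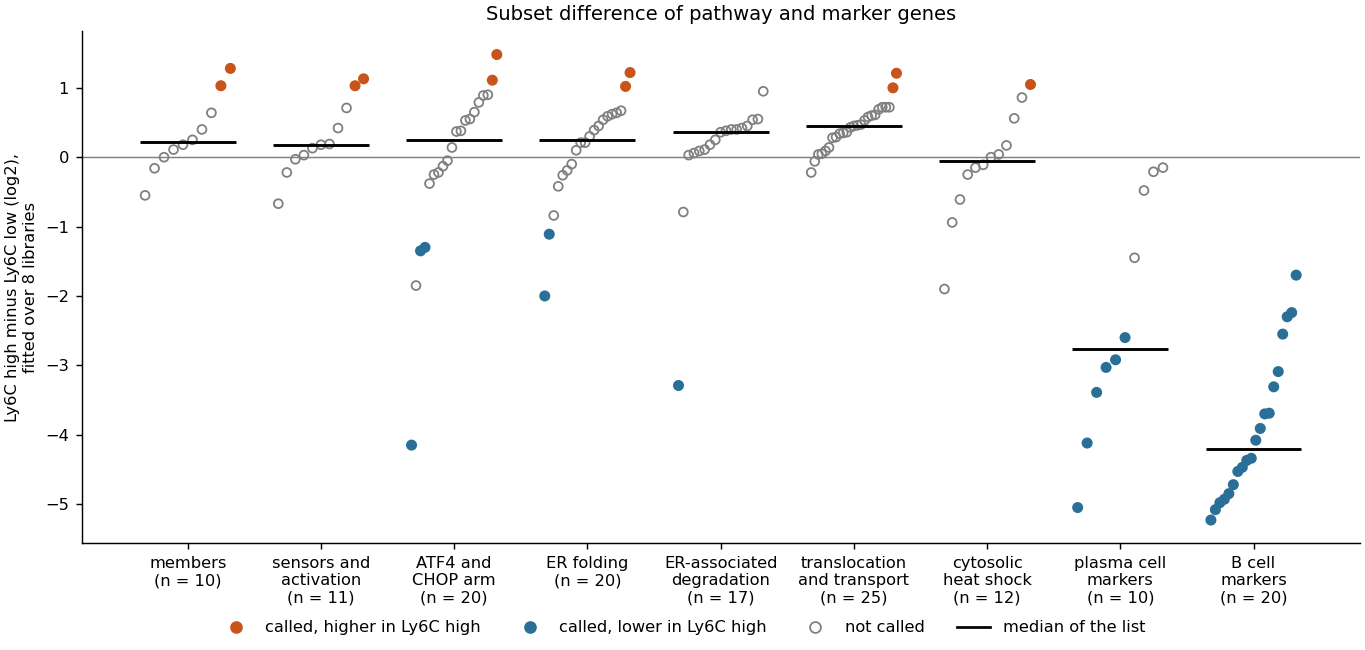
Ly6C high minus Ly6C low in the pooled test (y axis, log2) for the 10 UPR genes, 6 lists of related genes and 2 lists of marker genes (x axis, with the number measured), 1 point per gene sorted by value, filled where called. The medians of the UPR lists lie between 0.18 and 0.45, and those of the plasma cell and B cell markers at -2.76 and -4.21.

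Marker genes of B cells and plasma cells moved with the subset. All 20 B cell markers were called lower in Ly6C high MCs in the pooled test, and their summed level (log2 of the sum of linear values) was 9.19 to 9.87 in the Ly6C high and 12.85 to 13.13 in the Ly6C low libraries. Cd79a, a chain of the B cell receptor, was 2.68 to 4.17 in the Ly6C high and 8.56 to 9.08 in the Ly6C low libraries. Of the 10 plasma cell markers measured, 6 were called lower and 0 higher, and the summed level was 7.52 to 8.91 against 9.30 to 10.86. The joining chain gene Jchain was 5.62 and 5.73 (CT), 7.28 (T1DM) and 5.75 (T2DM) in Ly6C low MCs and 2.10 to 3.93 in Ly6C high MCs, and the ER cochaperone Mzb1 was 3.68 to 4.46 against -1.17 to 1.19. Sdc1, which encodes the surface marker CD138, was at most 1.74 in each library and Prdm1, the factor that drives plasma cell formation, was 4.94 to 5.64 in Ly6C low and 4.42 to 5.53 in Ly6C high MCs. The summed level of the 7 neutrophil markers measured was 7.29 to 9.99 in Ly6C high against 3.24 to 6.32 in Ly6C low MCs, and Mmp8, a neutrophil collagenase, was the 1 marker of the 7 called (higher in the pooled test, log2FC 5.56, adjusted p = 9.02e-07 by limma). Mmp8 alone made up most of the sum in the CT Ly6C high libraries (7.28 and 7.15, beside sums of 7.39 and 7.29). In CT MCs 3 of the 7 had a negative log2FC, S100a8 (-0.70), S100a9 (-1.39) and Ltf (-2.31), none of them called. T cell and NK cell markers were higher as a sum in each Ly6C low library (5.99 to 6.60 against 5.02 to 5.36, and 7.11 to 9.67 against 4.65 to 6.73). Ern1 and Xbp1 were higher in the libraries with less of the B cell and plasma cell markers, and the share that other cells have in the values of the 10 genes was not tested. In bulk samples fewer cells of a type cannot be told apart from less RNA per cell.

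The second question is whether diabetes changed UPR genes within a subset. For each of the 10 genes the diabetic libraries differed from the CT mean of their subset by less than 2-fold, and 0 of the 10 were called by limma in a test of diabetes. Past 2-fold, without a test, were 0 of the 10 in T1DM Ly6C high (5.11% of all genes higher, 4.94% lower), T1DM Ly6C low (4.03% and 4.78%), T2DM Ly6C high (5.96% and 7.89%) and T2DM Ly6C low MCs (5.09% and 5.68%). Tests over both subsets called 0 of the 10 for T1DM against CT (0.0% of all genes), T2DM against CT (0.297%) and T2DM against T1DM (0.588%). At an unadjusted p under 0.05 by limma were 0 of the 10 for T1DM against CT (551 genes, 3.34%), 1 for T2DM against CT (8.94%) and 3 for T2DM against T1DM (14.3%). Tests of both diabetic models together called 0 genes within Ly6C high MCs (739, or 4.48%, at an unadjusted p under 0.05), within Ly6C low MCs (489, or 2.97%) and for the difference of the subset effect between diabetic and CT mice (1084, or 6.58%), and 0 of the 10 had an unadjusted p under 0.05 in these tests by limma. No group has more than 2 libraries, which limits what these tests can detect. Where both models were tested together, the T1DM and T2DM libraries of a subset stood as replicates of each other. A difference between the models thus entered the error, and opposite changes cancelled in the mean. For Ddit3 the Ly6C high differences from CT were 0.64 (T1DM) and -0.62 (T2DM), and the joint log2FC was 0.01 (SE 0.42). A change that runs opposite ways in the models cannot be seen in the joint tests.

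Sdf2l1, Ddit3 and Herpud1 were the 3 genes with an unadjusted p under 0.05 for T2DM against T1DM, but none was called. In T2DM mice Sdf2l1 was higher than both CT libraries in both subsets, with differences from the CT mean of 0.62 (Ly6C high) and 0.58 (Ly6C low). In T1DM mice it was 0.49 below the CT mean in Ly6C high MCs and 0.12 above it, within the CT range, in Ly6C low MCs. Over both subsets the log2FC was 0.60 (SE 0.20, unadjusted p = 0.0165, adjusted p = 0.345 by limma) for T2DM against CT and 0.78 (SE 0.23, adjusted p = 0.163) for T2DM against T1DM. Ddit3 was lower than both CT libraries in T2DM mice, with differences from the CT mean of -0.62 (Ly6C high) and -0.49 (Ly6C low). In T1DM mice it was 0.64 above the CT mean in Ly6C high MCs and differed by -0.08 in Ly6C low MCs. Its log2FC was -0.56 (SE 0.26, adjusted p = 0.596) for T2DM against CT and -0.84 (SE 0.30, adjusted p = 0.247) for T2DM against T1DM.

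Herpud1 had the largest difference from CT of the 10 genes, at -0.81 in T2DM Ly6C high MCs, with the T2DM value below both CT libraries. Against the first CT library alone the difference was -1.02 and against the second -0.59. In T1DM Ly6C low MCs Herpud1 was 0.50 higher than the CT mean. Over both subsets its log2FC was -0.44 (SE 0.20, adjusted p = 0.586 by limma) for T2DM against CT and -0.68 (SE 0.23, adjusted p = 0.223) for T2DM against T1DM, and the difference of its subset effect between diabetic and CT mice was -0.63 (SE 0.44, adjusted p = 0.866).

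**Figure D4:**
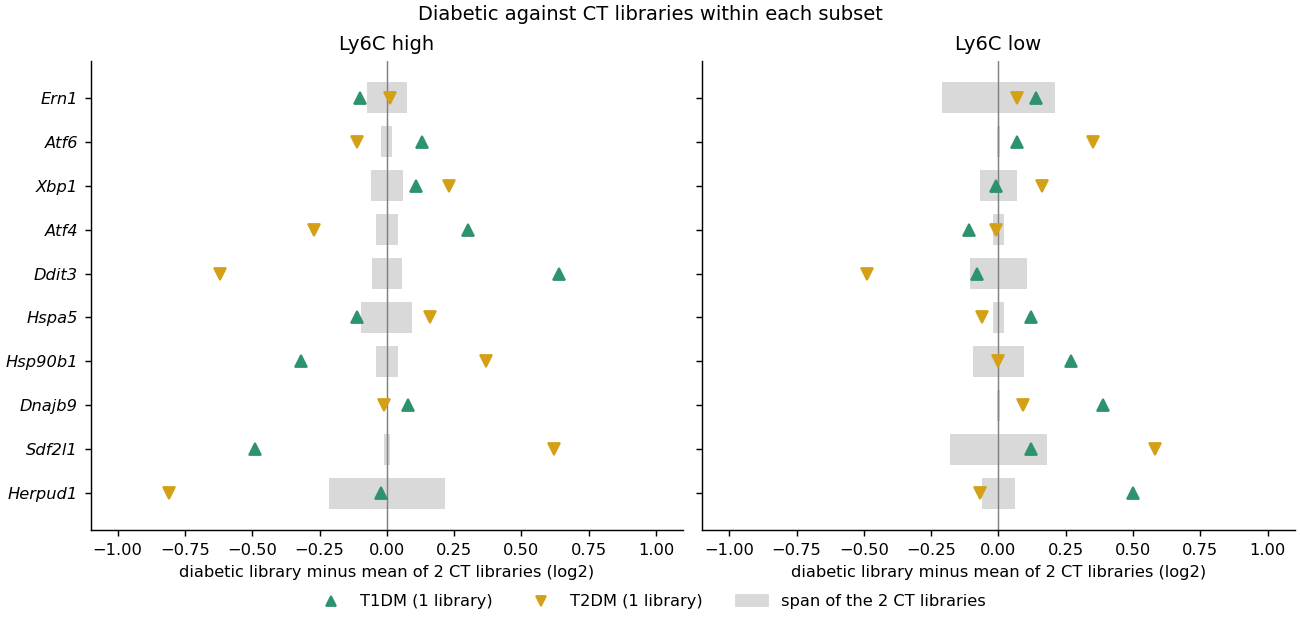
Difference of each diabetic library from the mean of the 2 CT libraries of its subset (x axis, log2) for the 10 UPR genes (y axis), with T1DM as upward and T2DM as downward triangles and the span of the 2 CT libraries as grey bars. The values used here hold no replicates of the diabetic libraries. The points lie between -0.81 and 0.64, and in Ly6C high MCs T1DM and T2DM lie beyond the CT span on opposite sides for Atf6, Atf4, Ddit3, Hspa5, Hsp90b1, Dnajb9 and Sdf2l1. The share of all genes with this pattern is not given here, so it cannot be read as a trait of UPR genes.

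The sensor Ern1 and its target Xbp1, which separated the subsets, differed from the CT mean by at most 0.23 in the diabetic libraries. In Ly6C high MCs Ern1 differed from CT by -0.10 (T1DM) and 0.01 (T2DM). In Ly6C low MCs the differences were 0.14 and 0.07, less than the 0.42 between the CT replicates there. For Xbp1 they were 0.11 (T1DM) and 0.23 (T2DM) in Ly6C high, and -0.01 and 0.16 in Ly6C low MCs. In T2DM mice Xbp1 lay above both CT libraries in both subsets, in Ly6C high MCs by more than these differed from each other. The log2FC of Xbp1 for T2DM against CT was 0.19 (SE 0.10, adjusted p = 0.654 by limma). Hspa5 stayed within 0.16 of the CT mean in each diabetic library, and Hsp90b1 differed by -0.32 (T1DM) and 0.37 (T2DM) in the Ly6C high subset.

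A diabetic value was taken as outside the CT range when it lay beyond both CT libraries of its subset by more than they differed from each other. This held for 6 of the 10 genes in T1DM Ly6C high MCs (39.7% of all genes), 5 in T1DM Ly6C low MCs (39.1%), 8 in T2DM Ly6C high MCs (45.3%) and 4 in T2DM Ly6C low MCs (41.5%). With CT values that were nearly identical within a subset, Dnajb9 counted as outside even at a difference of -0.01.

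For T2DM against T1DM 0 genes of the 6 lists were called, against 0.588% of all genes. At an unadjusted p under 0.05 by limma were 14.3% of all genes. Over all 16486 genes 8238 had a positive and 8183 a negative log2FC, with a median of 0.00. In the ER folding list 17 of 20 had a positive log2FC, with a median of 0.33, and 8 an unadjusted p under 0.05. The heat shock genes lay the other way, with 9 of 12 negative and a median of -0.25. In either direction 6 of the 12 had an unadjusted p under 0.05, and 1 of these, Bag3, had a positive log2FC (0.42). In the other lists 5 of 20 genes of the ATF4 and CHOP arm, 3 of 17 ERAD genes, 2 of 11 of sensing and activation and 2 of 25 of translocation and transport had an unadjusted p under 0.05, with medians of -0.05, 0.08, 0.17 and 0.13. For T2DM against CT the heat shock median was -0.41, and 7 of the 12 had an unadjusted p under 0.05, against 8.94% of all genes. The ER folding medians against CT were 0.16 in T2DM and -0.18 in T1DM mice, comparisons that share the CT libraries. Whether the values were adjusted between the sequencer of the CT libraries and that of the diabetic ones is not given in the sources used here. A centring of these sets on each other would draw the average of the diabetic libraries toward that of CT, and its part was not tested. Of the 93 pathway genes, 0 were called in a comparison with CT or between the diabetic models. Among those with a mean of at least 3, the largest differences from CT without a test were those of Mthfd2, an enzyme of mitochondrial folate metabolism (-1.35), and Eif2ak2 (-1.32), both in T2DM Ly6C high MCs. Larger ones occurred among genes of lower mean, such as Chac1 (2.05 in T2DM Ly6C low MCs).

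Markers of other cells also differed between the mouse groups. The summed neutrophil markers were 9.99 in T2DM Ly6C high MCs, beside 7.29 and 7.39 in CT, and 6.32 in T2DM Ly6C low MCs, beside 4.15 and 4.42 in CT. The summed plasma cell markers were 10.86 in T1DM Ly6C low MCs, beside 9.30 and 9.40 in CT. The summed NK cell markers were 4.65 in T2DM Ly6C high MCs, beside 6.28 and 6.27 in CT, and 7.11 in T2DM Ly6C low MCs, beside 9.23 and 9.18 in CT. All 8 had a negative log2FC for T2DM against CT, and 3 (Ncr1, Gzma and Nkg7) were called lower by limma. The summed eosinophil and basophil markers were 5.28 (T1DM) and 6.79 (T2DM) in Ly6C low MCs, beside 4.00 and 3.83 in CT. The summed platelet markers were 9.55 and 9.66 in the T1DM libraries, 7.66 and 7.88 in the T2DM libraries and 8.44 to 8.85 in the CT libraries. Among 5228 genes with a mean of at least 5, the diabetic mean (4 libraries) minus the CT mean (4 libraries) had an SD over genes of 0.151, T1DM minus CT an SD of 0.192, T2DM minus CT 0.309 and T2DM minus T1DM (2 libraries each) 0.417. These means rest on unequal numbers of libraries, and the split of CT from diabetic libraries is also that of the sequencers. The part of these facts in the values of the 10 genes was not tested.

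Over the 8 libraries, the genes most like Xbp1 among the 5228 were Flvcr1 (Pearson r = 0.998), a heme exporter, Cd177 (0.997), a surface protein of neutrophils, Selenop (0.997), Eif4e3 (0.996) and Il17ra (0.996). Their libraries fall into the same subset clusters, so a high r is shared by genes that separate the subsets; Cd177 spanned 7.98 to 9.07 in Ly6C high and 1.74 to 2.94 in Ly6C low MCs. For Hspa5 they were Krcc1 (0.968), Dnajc5 (0.967), Rad23b (0.962), Syap1 (0.958) and Copb1 (0.955), and for Ddit3 Aff4 (0.986), Pea15a (0.950), Cyp4f18 (0.942), AC149090.1 (0.941) and Rcbtb1 (0.939). None of these 15 was among the 10 UPR genes, of which only the 7 with a mean of at least 5 could appear. With 5 genes named per search among 5228, this absence says little about whether UPR genes move together. These correlations describe 8 libraries and were not tested.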

How the data were processed

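Per the labels and the study's methods, the authors quantified reads with Kallisto (version 0.45), used tximport 1.12.3 under R 3.6.1 for gene counts and TPM and named mm10 as build. They deposited normalized log2 values; the scaling between libraries, whether counts or TPM were used, any filter and any adjustment between sequencers are not given in the sources used here. No counts were used, so no counting error is given. Here limma 3.58.1 (lmFit, eBayes with trend) in R 4.3.3 was run on the deposited log2 values of 16486 genes, without a filter or pseudocount, and checked on simulated data. The covariates were mouse group for the subset test and subset for T1DM, T2DM and their contrast. Calls used the limits of the study, 0.01 for the adjusted p-value and 1 for the absolute log2FC. With 1 library on a side no test was made. The 10 genes, the lists and the tests were chosen with earlier results of these data known. Of other pathway genes, up to 5 per direction with the largest log2FC among those called were eligible to be named (untested: past 2-fold, mean at least 3), and the 5 genes with the highest r for Xbp1, Hspa5 and Ddit3. Fkbp2, Kdelr1, Hspa8, Acacb, Lrif1, Chac1 and the neutrophil and NK cell markers were named after their values were seen. Positions, promoters and gene names are from RefSeq (GRCm38.p6) and shared 31-base sequences from GENCODE M21 transcripts. Python 3.11.15 with numpy 2.4.6, pandas 2.3.3 and matplotlib 3.10.9 made tables and figures. The alternatives were a filter (mean log2 at least 1), adding 1 on the linear scale, quantile normalization, eBayes without trend, an adjusted p limit of 0.05, a replicate block, and leaving out CT libraries or a diabetic model.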

Additional observations from a re-analysis of the deposited data

Results flagged for a closer look

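Several UPR genes moved in opposite directions in 2 mouse groups or subsets under the same comparison. These are differences of 1 to 2 libraries a side, given on the log2 scale, and the difference between the directions was not tested. The share of all genes with such opposite directions is not given, so the pairs cannot be read as a trait of UPR genes. A pair is given where each library on one side of the comparison lay above, or each below, those on the other, in opposite directions in the pair.

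For the subset difference (Ly6C high minus Ly6C low), Atf4 was 0.21 in CT and 0.62 in T1DM but -0.05 in T2DM mice. Ddit3 was -0.70 in CT and -0.83 in T2DM but 0.02 in T1DM mice. Of the 4 chaperone genes, 3 were lower in Ly6C high MCs in T1DM but not in CT or T2DM mice, with Hspa5 at 0.18 in CT, -0.05 in T1DM and 0.40 in T2DM, Hsp90b1 at 0.17, -0.42 and 0.54, and Dnajb9 at 0.10, -0.21 and 0.01. With quantile normalization each of these 3 was also lower in Ly6C high MCs in another group, Hspa5 (-0.10) and Hsp90b1 (-0.22) in CT and Dnajb9 (-0.04) in T2DM mice.

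For T1DM minus CT, the directions in Ly6C high and Ly6C low MCs were opposite for Atf4 (0.30 and -0.11), Hspa5 (-0.11 and 0.12) and Hsp90b1 (-0.32 and 0.27). For T2DM minus CT they were opposite for Atf6 (-0.11 and 0.35), Hspa5 (0.16 and -0.06) and Dnajb9 (-0.01 and 0.09).

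Within Ly6C high MCs, T1DM minus CT and T2DM minus CT were opposite for Atf6 (0.13 and -0.11), Atf4 (0.30 and -0.27), Ddit3 (0.64 and -0.62), Hspa5 (-0.11 and 0.16), Hsp90b1 (-0.32 and 0.37), Dnajb9 (0.08 and -0.01) and Sdf2l1 (-0.49 and 0.62), and within Ly6C low MCs for Hspa5 (0.12 and -0.06) and Herpud1 (0.50 and -0.07). These pairs share the CT libraries, and CT and diabetic libraries differ in sequencer. Among genes with a mean of at least 5, T2DM minus T1DM had an SD over genes of 0.417, beside 0.151 for the diabetic minus the CT mean. Whether the values were adjusted between the sequencers is not given in the sources used here, and its part in these signs was not tested.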

How the results depend on the processing

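In CT MCs, 581 genes were called. This became 1089 with the low-value filter, 0 without the trend, 1936 at an adjusted p limit of 0.05, 0 in the fit with the replicate block and 0 when each CT library was left out. Of the 10 UPR genes, 0 became 1 (Ern1) with the filter and 1 (Ern1) at 0.05. In the pooled test 2001 genes became 1823 with the replicate block, and 2 of the 10 became 1 (Ern1) with quantile normalization. The numbers do not pair the libraries in the labels, and the deviations of same-numbered CT libraries had a correlation of 0.077. T1DM against CT went from 0 genes to 2 at 0.05; T2DM against CT from 49 to 9 without trend, 105 at 0.05 and 17 to 21 without a CT library; T2DM against T1DM from 97 to 26, 253 and 57 to 84; and the difference of the subset effect from 0 to 3 at 0.05. Past 2-fold in Ly6C high MCs, 2 of the 10 became 0 in T1DM and 1 in T2DM mice with quantile normalization, and 0 past 2-fold lower for T2DM against CT in Ly6C high MCs became 1 (Herpud1) without CT Ly6C high replicate 2, a range of 0 to 1.

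Signs reversed with quantile normalization for Hspa5 (-0.10) and Hsp90b1 (-0.22) in CT MCs, and for Hspa5 (-0.10), Hsp90b1 (-0.29) and Dnajb9 (-0.03) in the pooled test; it moved the median log2FC of all genes from -0.087 to 0.02 and from -0.082 to 0.038. Without T2DM libraries Hsp90b1 was -0.03 and Dnajb9 -0.002, without a CT library Dnajb9 was -0.02, Herpud1 in CT MCs -0.06 to 0.37 (negative without CT Ly6C high replicate 1) and Ern1 for T2DM against CT -0.06 to 0.11 (negative without CT Ly6C low replicate 1). Xbp1 ranged from 0.78 to 1.07 and Ern1 from 1.04 to 1.35 in the pooled test. The causes were not tested. Depth is unknown, and 1 diabetic library per subset limits each diabetic comparison.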
